A study of Mus musculus with 8 samples.

Results

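The genes described here are 10 regulators of the step at which a cell commits to division: the Cip/Kip inhibitors Cdkn1a (p21), Cdkn1b (p27) and Cdkn1c (p57), the small kinase-binding proteins Cks1b and Cks2, the D-type cyclins Ccnd1, Ccnd2 and Ccnd3, and the kinases Cdk4 and Cdk6. They are 10 of the 18193 genes that the platform annotation names on a single-gene probe set, and all 28 of their probe sets were kept, of 34945 named probe sets. The genes were chosen because of the rise of Cks1b in the same R6/2 and wild-type arrays, so their differences are a description and their p-values are not independent evidence.

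Striatal RNA was measured on Affymetrix arrays from 4 R6/2 mice (numbered 64, 65, 70 and 78) and 4 wild-type mice (42, 48, 54 and 63), with 1 array per mouse. R6/2 mice are a transgenic model of Huntington's disease that carries the start of the human huntingtin gene, with its own promoter and an expanded CAG repeat. Both groups were female, on a C57Bl/6 / CBA background, and 85 days (12 weeks) old, and no other allele or treatment is labelled. The design text names 5 wild-type mice, of which 4 were analysed here.

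D-type cyclins activate Cdk4 and Cdk6, which phosphorylate the retinoblastoma family and release the E2F factors that drive DNA synthesis. The Cip/Kip proteins bind cyclin-kinase complexes and block them, and Cks1 is the adaptor with which the ubiquitin ligase SCF-Skp2 recognises phosphorylated p27 for destruction. Most cells of the adult striatum are neurons that have left the cell cycle for good, and in such cells p21, p27, p57 and Cyclin D2 are also known from growth arrest, stress responses and differentiation.

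The upstream windows of both Cks genes are shown because their transcripts were higher together in R6/2 mice. They are the 250 bases before the annotated transcription start, from RefSeq on GRCm38.p6, written 5′ to 3′ on the strand of the gene. Capitals mark CCAAT (the letters of the NF-Y box) and TTTGAA (the letters of the cell cycle genes homology region), each searched on both strands, so that ATTGG and TTCAAA are their reverse matches.
Cks1b (chr3:89418292-89418541, minus strand): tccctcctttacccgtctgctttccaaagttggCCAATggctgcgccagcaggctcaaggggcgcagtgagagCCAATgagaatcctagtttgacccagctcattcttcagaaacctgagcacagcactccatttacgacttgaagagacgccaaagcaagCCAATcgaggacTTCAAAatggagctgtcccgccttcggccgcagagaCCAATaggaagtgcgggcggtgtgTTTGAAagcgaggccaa
Cks2 (chr13:51644982-51645231, plus strand): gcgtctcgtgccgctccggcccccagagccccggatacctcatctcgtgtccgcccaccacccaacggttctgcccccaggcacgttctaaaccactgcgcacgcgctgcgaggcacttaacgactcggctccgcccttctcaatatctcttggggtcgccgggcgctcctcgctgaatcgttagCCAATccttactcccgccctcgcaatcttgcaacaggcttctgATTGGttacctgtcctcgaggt
The Cks1b window held 4 matches to CCAAT, beginning 217, 177, 89 and 41 bases before the start, and 2 to TTTGAA, at 77 and 17 bases. The Cks2 window held 2 matches to CCAAT, at 65 and 22 bases, and no TTTGAA in this window. Among all 32851 upstream windows of this length, 33.8% held CCAAT and 16% held TTTGAA, and the motifs did not overlap in either Cks window. Upstream windows were matched for 7 of the 10 genes, 9 in number. The Cdkn1b window held 2 matches to CCAAT, and both Cdkn1a windows held none. CACGTG, the E box that Myc proteins bind, had 4 matches in the Cdk4 window and 1 in the Cdk6 window, against 6.02% of all windows. The E2F letters TTTCCCGC, TTTCGCGC, TTTGCCGC and TTTGGCGC, found in 1.86% of windows, were in none of the 9. A match is a description of letters, and binding was not measured here.

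The deposited values are log2 expression values after RMA, in which 1 unit is a doubling. Array medians lay between 5.08 and 5.13, arrays correlated at 0.983 to 0.994, and no array stood apart. As a check of the tissue, the measured markers of medium spiny neurons, the main cell type of the striatum, had means of 9.70 to 11.87 over the arrays, and all 6 were lower in R6/2 mice. Genes of cortical projection neurons, cells that do not belong to the striatum, were scored as a mean difference from wild-type over 12 genes. The scores were -0.59 to 0.31 in wild-type and -1.04 to -0.17 in R6/2 mice, with 2 genes called lower. These genes did not vary alike: Lamp5 and Mef2c read 9.88 or more on every array, while Slc17a7 ran from 5.08 to 8.66. The score averaged -0.66 in R6/2 mice, so as a covariate it cannot be told apart from part of the genotype contrast. The part of these genes in the results was not tested beyond the covariate named below. In whole tissue, fewer cells of a type and less RNA per cell cannot be told apart. The 9 probe sets of the Y-linked genes Uty, Kdm5d and Eif2s3y, which female mice lack, read between 2.77 and 3.67, which is used below as the level of an absent transcript. Over all 45037 probe sets tested, 2497 were higher (5.54%) and 2069 lower (4.59%) at an adjusted p under 0.05, and in 7259 (16.1%) the groups did not overlap.

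Both Cks transcripts were higher in every R6/2 mouse. Cks1b, which encodes the adaptor for p27 destruction, read 6.41, 6.25, 6.17 and 6.50 in wild-type mice 42, 48, 54 and 63, and 7.55, 7.29, 7.56 and 7.65 in R6/2 mice 64, 65, 70 and 78, on probe set 1416698_a_at. The lowest R6/2 array lay well above the highest wild-type array. The group means were 6.33 ± 0.15 and 7.51 ± 0.16 (SD, n = 4 each), a difference of 1.18 ± 0.10 (SE, log2) or 2.26-fold (limma, adjusted p = 0.000354). The second Cks1b probe set, 1448441_at, read 4.35, 4.65, 4.21 and 4.68 in wild-type and 6.00, 5.44, 5.90 and 5.80 in R6/2 mice. It too separated the groups, with a difference of 1.31 ± 0.14 (2.48-fold, adjusted p = 0.000820), and its 95% interval of 0.99 to 1.62 overlapped that of the first probe set, 0.95 to 1.41.

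Cks2, the close relative of Cks1b that binds the same kinases, moved with it. Probe set 1417458_s_at read 4.99, 4.94, 4.88 and 4.93 in wild-type and 6.16, 5.86, 5.97 and 6.25 in R6/2 mice. The wild-type arrays lay within a narrow band (SD 0.048) and the R6/2 arrays spread more (SD 0.18), with no overlap. The difference was 1.13 ± 0.093 (2.18-fold, adjusted p = 0.000283). The other Cks2 probe set, 1417457_at, read 4.90, 5.42, 5.22 and 5.60 against 6.12, 5.83, 6.40 and 6.26. Its groups did not overlap either, but lay closer, with a difference of 0.87 ± 0.16 (1.83-fold, adjusted p = 0.00862). That last call did not pass without variance moderation (adjusted p = 0.0669) or with a score of cortical neuron genes as a covariate (0.94 ± 0.23, adjusted p = 0.0627), and all other alternatives run kept it.

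**Figure D1:**
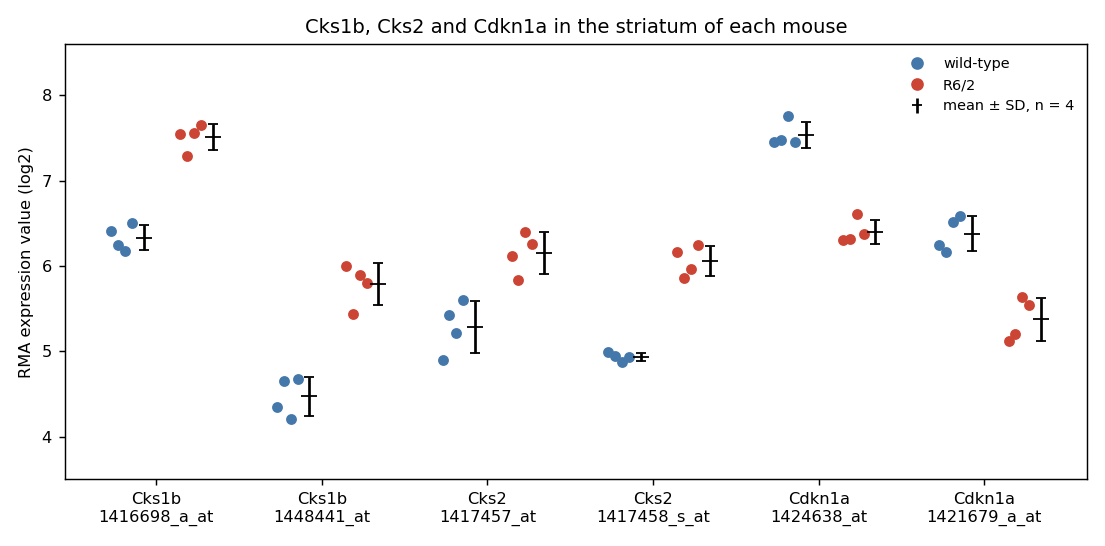
RMA expression value (log2) of each mouse for the probe sets of Cks1b, Cks2 and Cdkn1a, 1 point per mouse in wild-type and R6/2 columns, with the group mean ± SD (n = 4) beside them. All 4 Cks probe sets lie higher in R6/2 and both Cdkn1a probe sets lower, with no overlap between groups in any of the 6.

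Markers of cells that could divide or renew in this tissue were read beside the Cks genes. A list's score on an array averages, over its genes, how far each lies from its wild-type mean. The 7 measured oligodendrocyte progenitor genes scored -0.03 to 0.08 in wild-type and -0.05 to 0.04 in R6/2 mice, and the 7 neuroblast genes -0.39 to 0.23 and -0.02 to 0.35. The neuroblast genes did not vary alike, with a median difference of -0.085. Sox11 differed by 1.30 ± 0.63 (adjusted p = 0.235), with wild-type 42 at 5.53 and the other mice at 8.28 or more. Tubb3 differed by -0.52 ± 0.18 (adjusted p = 0.0963). The 8 microglial genes scored -0.13 to 0.13 and -0.20 to 0.10. No gene of these 3 lists passed the limma test (2, 1 and 2 genes had an unadjusted p under 0.05), the score ranges of the groups overlapped in each, and no marker on them lay at the level of an absent transcript. The progenitor score ranked the mice of each group in the same order as Cks1b on 1416698_a_at (r within groups 0.80). On the other Cks probe sets it did not (r 0.40 to 0.67). That match was picked from all member probe sets against all marker lists, and its meaning was not tested.

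The genes beside Cks1b on chromosome 3 did not move with it. Of the 3 named genes on either side, none passed the limma test (1 had an unadjusted p under 0.05): Flad1, which makes the cofactor FAD, differed by 0.087 (adjusted p = 0.564), and the adaptor gene Shc1 by 0.24 (adjusted p = 0.192). The remaining neighbours, Zbtb7b, Gm15417, Pygo2 and Pbxip1, differed by -0.12, -0.0042, 0.050 and 0.034, with adjusted p between 0.616 and 0.983.

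The genes whose values followed Cks1b (1416698_a_at) most closely over the 8 arrays were Samd14, Macrod1 (an ADP-ribose hydrolase), Vbp1 (a prefoldin subunit), Golga3 (a Golgi protein) and Klc4 (a kinesin light chain), with Pearson r of 0.994, 0.993, 0.992, 0.991 and 0.989. These correlations describe arrays that share 1 genotype contrast, which alone gives high values: 157 of 18183 genes (0.863%) had r above 0.95. Samd14 was the nearest in size, with 6.21 ± 0.11 in wild-type and 7.29 ± 0.15 in R6/2 mice, a difference of 1.08 ± 0.093. The other named genes differed by 0.50 to 0.92.

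Cdkn1a, the p21 inhibitor induced by p53 and by growth arrest signals, was lower in every R6/2 mouse. Probe set 1424638_at read 7.45, 7.48, 7.76 and 7.45 in wild-type and 6.30, 6.31, 6.61 and 6.37 in R6/2 mice. Both groups were tight, with the lowest wild-type array at 7.45 and the highest R6/2 array at 6.61. The means were 7.53 ± 0.15 and 6.40 ± 0.14, a difference of -1.14 ± 0.10, or 2.20-fold lower (adjusted p = 0.000369). Probe set 1421679_a_at read 6.25, 6.16, 6.52 and 6.58 against 5.12, 5.20, 5.64 and 5.54. It gave the same picture, with -1.00 ± 0.14 (2.00-fold lower, adjusted p = 0.00260). The 2 probe sets of Cdkn1a and those of Cks1b passed in every alternative that contained them, with Cdkn1a at -1.25 ± 0.14 and Cks1b (1416698_a_at) at 1.33 ± 0.13 when the cortical score was a covariate.

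Among the marker lists, 3 had lower scores in all R6/2 mice than in all wild-type mice, the direction of Cdkn1a. The 6 medium spiny neuron genes had the largest shift, from -0.22 to 0.12 in wild-type to -1.13 to -1.02 in R6/2 mice, with all 6 called lower. The 8 astrocyte genes scored -0.12 to 0.22 in wild-type and -0.26 to -0.19 in R6/2 mice, and 1 of them passed the test, lower. The 7 endothelial and mural genes scored -0.07 to 0.11 and -0.44 to -0.18, and 2 passed, both lower. The 7 oligodendrocyte genes, of which 1 passed (lower), overlapped at -0.18 to 0.27 and -0.19 to 0.03. None of these markers lay at the level of an absent transcript, and their part in the Cdkn1a result was not tested.

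Cdkn1b, the p27 inhibitor that the Cks1 adaptor helps to remove, was not called. Its brighter probe set, 1434045_at, read 6.92, 7.16, 6.93 and 7.05 in wild-type and 7.30, 7.45, 7.17 and 7.31 in R6/2 mice. All R6/2 arrays lay above all wild-type arrays, the closest pair at 7.16 and 7.17. The difference of 0.30 ± 0.086 (1.23-fold, 95% interval 0.11 to 0.49) just missed the threshold (adjusted p = 0.0551). It passed in 3 of 16 alternatives: arrays centred on their medians (adjusted p = 0.0452), no dim probe sets (0.0449) and 1 probe set per gene (0.0405). It did not pass in the others, with adjusted p of 0.0549 to 0.125 when single mice were left out, 0.105 after quantile normalization and 0.292 when adjusted for the cortical score. The other probe set, 1419497_at, lay at the level of the Y-linked genes and so gave no measurable level.

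Cdkn1c, the p57 inhibitor, varied more between wild-type mice than any other inhibitor probe set. It read 6.01, 6.55, 5.96 and 7.16 in wild-type and 6.71, 7.38, 7.38 and 7.20 in R6/2 mice on its only probe set, 1417649_at. The groups overlapped, since wild-type mouse 63 lay above R6/2 mouse 64. The difference of 0.75 ± 0.25 (95% interval 0.18 to 1.32) was not called (adjusted p = 0.0941), and leaving out single mice moved it from 0.60 without wild-type 54 (adjusted p = 0.204) to 1.00 without wild-type 63 (adjusted p = 0.0151), the only one of these fits in which it passed. The joint score of choroid plexus and ependymal genes, from tissues that border the striatum, ranked the mice of each group in the same order as Cdkn1c (r within groups 0.89). This match was picked from all member probe sets against all marker lists, so it is a description. The astrocyte score had the order of Cdkn1c in wild-type mice only (r within groups 0.76). The choroid and ependymal score, over 10 genes, was -0.24, 0.16, -0.91 and 0.98 in wild-type and -0.94, 1.27, 0.97 and 0.75 in R6/2 mice. Its genes did not vary alike. The choroid plexus gene Sostdc1 ran from 4.79 to 9.59, while the ependymal genes Foxj1 and Tmem212 ran from 4.90 to 5.43 and from 4.73 to 5.52. The spread of the score thus came mostly from choroid plexus genes. No gene of the choroid and ependymal list passed the limma test (1 at an unadjusted p under 0.05), and none lay at the level of an absent transcript. With the score as a covariate the Cdkn1c difference was 0.52 ± 0.14 (adjusted p = 0.0510).

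**Figure D2:**
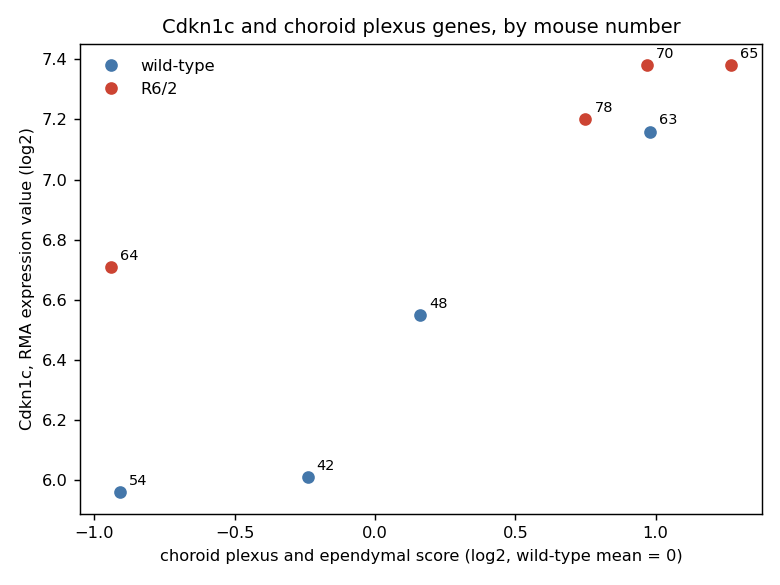
Cdkn1c expression value (RMA, log2) against the score of choroid plexus and ependymal genes (log2, wild-type mean at 0), 1 point per mouse, coloured by group and marked with the mouse number. Within each group the mice with higher scores had higher Cdkn1c, and at similar scores the R6/2 mice lay above the wild-type mice.

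The D cyclins gave 1 call, higher, in 13 probe sets, where 5.54% of all probe sets were called higher and 4.59% lower. The probe sets of Ccnd2 disagreed with each other. Ccnd1 was not called on any of its 3 probe sets, with differences of -0.10, -0.013 and -0.098 and intervals that ran from -0.52 at the lowest to 0.34 at the highest. Ccnd3 differed by 0.31 ± 0.15 on its brightest probe set, 1415907_at (95% interval -0.033 to 0.65, adjusted p = 0.249). That probe set read 6.46, 7.02, 7.11 and 7.28 in wild-type and 7.17, 7.36, 7.35 and 7.23 in R6/2 mice, so the groups overlapped. The other Ccnd3 probe sets differed by -0.011 and -0.11, with adjusted p of 0.945 and 0.422.

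Ccnd2, a D cyclin known from the growth of neural precursors and from differentiating neurons, had 7 probe sets, which did not read alike. On 1416122_at, 1434745_at and 1455956_x_at the groups overlapped, with differences of -0.094, -0.16 and -0.38 (adjusted p = 0.629, 0.512 and 0.113). On 1430127_a_at, which read 9.20, 8.96, 8.76 and 8.68 in wild-type and 9.52, 9.24, 9.33 and 9.32 in R6/2 mice, the transcript rose by 0.45 ± 0.12 (1.37-fold, adjusted p = 0.0369). The groups did not overlap, but the highest wild-type and lowest R6/2 arrays, 9.20 and 9.24, lay close. Leaving out any 1 mouse other than wild-type 42 ended this call, with adjusted p up to 0.101 (0.0105 without wild-type 42).

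On a further pair of Ccnd2 probe sets, 3 R6/2 mice were low and mouse 70 was not. Probe set 1416123_at read 5.03, 4.98, 5.02 and 4.89 in wild-type and 3.89, 3.70, 5.11 and 3.73 in R6/2 mice. Mouse 70 lay above every wild-type mouse, and the other R6/2 mice lay near the Y-linked level. Over all mice the difference was -0.87 ± 0.27 (adjusted p = 0.0659), and without mouse 70 it was -1.20 ± 0.083 (adjusted p = 0.000751). Probe set 1448229_s_at read 7.52, 7.94, 7.70 and 7.95 against 6.20, 6.85, 7.85 and 6.22. Mouse 70 again lay among the wild-type values, and the difference was -1.00 ± 0.31 (adjusted p = 0.0729), or -1.36 ± 0.18 without mouse 70 (adjusted p = 0.00533). The last probe set, 1416124_at, lay at the Y-linked level. The files do not say which part of the transcript each Ccnd2 probe set reads.

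**Figure D3:**
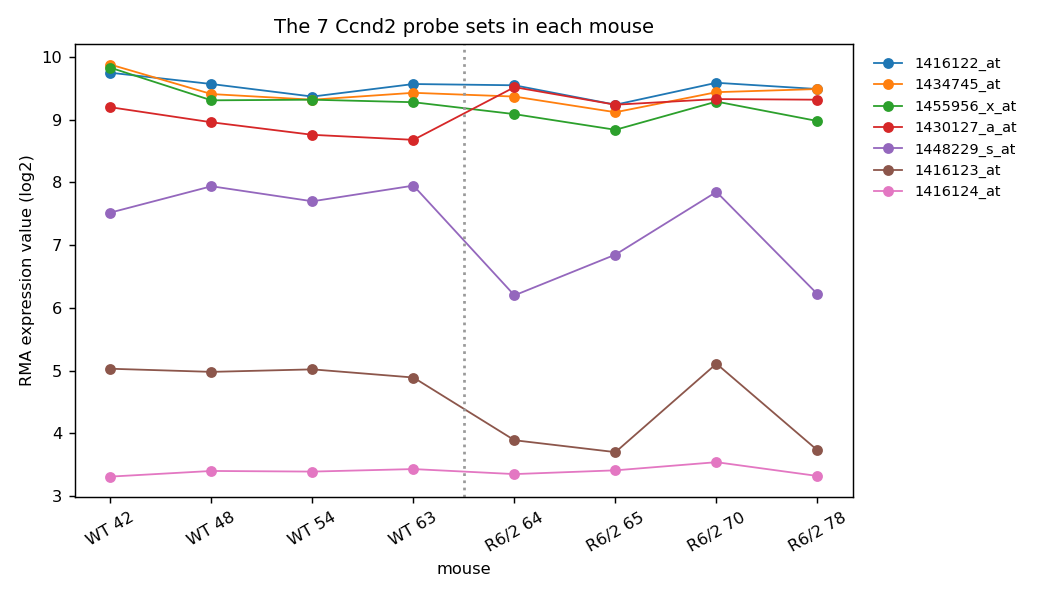
RMA expression value (log2) of the 7 Ccnd2 probe sets, 1 coloured line each, in the 4 wild-type mice (left of the dotted line) and the 4 R6/2 mice (right), each mouse at its own place on the horizontal axis. On 1416123_at and 1448229_s_at, R6/2 mice 64, 65 and 78 lie below all wild-type mice and mouse 70 lies at 5.11 and 7.85.

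The kinases that the D cyclins activate showed no difference that passed the limma test, and none of the 6 probe sets had an unadjusted p under 0.05. Cdk4 differed by -0.0059, -0.21 and -0.024 on its 3 probe sets, with 95% intervals from -0.46 at the lowest to 0.25 at the highest. Its largest difference, on 1422439_a_at, came from readings of 7.39, 7.19, 7.52 and 7.33 in wild-type and 7.24, 6.86, 7.24 and 7.23 in R6/2 mice, which overlapped (-0.21 ± 0.11, adjusted p = 0.262). Cdk6 differed by -0.10 and 0.063 on the 2 probe sets above the Y-linked level (adjusted p = 0.465 and 0.688), and the third lay at that level.

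Over the 28 probe sets, 5 were higher, 2 were lower and 21 were not called, and in 8 the groups did not overlap. The calls came from 4 genes: all 4 Cks probe sets, both Cdkn1a probe sets and 1 of Ccnd2. Without R6/2 mouse 70, 8 were called, 4 of them lower. The median difference over the members was -0.018, against -0.017 over all probe sets. Over all probe sets 5.54% were higher and 4.59% lower, and in 16.1% the groups did not overlap. Because this contrast chose the genes, nothing is read from the member counts against those shares. Of the 28, 3 had a group at the Y-linked level (1 each of Cdkn1b, Ccnd2 and Cdk6).

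**Figure D4:**
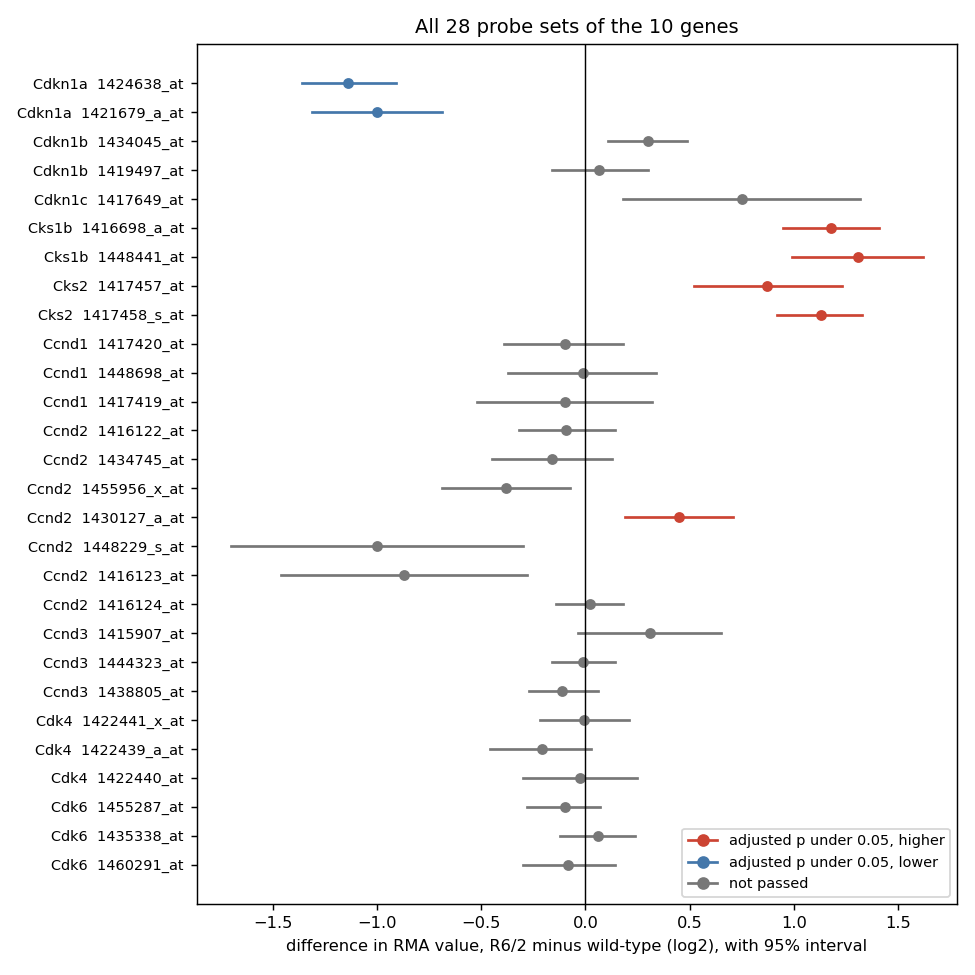
Difference between R6/2 and wild-type mice (log2) with its 95% interval for all 28 probe sets of the 10 genes, grouped by gene, with called probe sets marked. The Cks intervals lie to the right of 0 and the Cdkn1a intervals to the left, and the Ccnd2 probe sets run from -1.00 to 0.45.

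Other genes of the pathway were read from lists of known cell cycle genes and regulators, each gene at its brightest probe set. Of 115 measured genes, 11 were higher and 8 lower, where 7.29% and 5.13% of all 18193 named genes were. Their median difference was 0.034, against -0.0034 over all named genes. Genes with a group at the Y-linked level, which gave no measurable difference, were Cdkn2a, Cdkn3, E2f7, E2f8, Ccna1, Birc5, Aurkb, Bub1, Tyms, Pmaip1 and Eda2r. The count of calls depended on single mice: without wild-type 48 it was 11, and without R6/2 65 or R6/2 70 it was 12. With the cortical score as a covariate 5 passed.

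Among the other inhibitors of cyclin-dependent kinases, none of 5 passed in limma (1 at an unadjusted p under 0.05). Of these, Cdkn2a and Cdkn3 had a group at the Y-linked level. Cdkn2d, an inhibitor of Cdk4 and Cdk6 that is known in resting neurons, differed by 0.23 ± 0.080 (adjusted p = 0.104), and Cdkn2c by 0.034 (adjusted p = 0.846). Of the 13 retinoblastoma family and E2F genes only Rbl2 passed. Rbl2 encodes p130, the family member of resting cells, and read 7.41, 7.19, 7.08 and 7.13 in wild-type and 7.66, 7.58, 7.75 and 7.88 in R6/2 mice. It rose by 0.52 ± 0.096 (adjusted p = 0.00913) without overlap, and its other probe set by 0.84 ± 0.17 (adjusted p = 0.0139). With the cortical score as a covariate the 0.52 became 0.59 ± 0.13 and just missed the threshold (adjusted p = 0.0523).

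Of 12 cyclins, kinases and phosphatases of the later phases, 2 rose and 2 fell. Wee1, the kinase that holds Cdk1 inactive, rose by 0.58 ± 0.078 (adjusted p = 0.00225), from 6.74 to 6.95 in wild-type to 7.33 to 7.56 in R6/2 mice. The dimmer Wee1 probe set was not called, at 0.20 (adjusted p = 0.227). Ccnb2, a mitotic cyclin, fell by 0.50 on the log2 scale (adjusted p = 0.00869), from 4.37 to 4.67 in wild-type to 3.83 to 4.11 in R6/2 mice. The phosphatases that activate the kinases split: Cdc25b differed by -0.47 ± 0.11 (adjusted p = 0.0216) and Cdc25a by 0.40 ± 0.11 (adjusted p = 0.0451). Another Cdc25a probe set differed by 0.53, with all R6/2 mice above all wild-type mice, and was not called (adjusted p = 0.0661). The last Cdc25a probe set had a group at the Y-linked level and gave no measurable difference. The Cdc25a call was lost without any mouse but R6/2 65 (adjusted p up to 0.106), and the Cdc25b call without wild-type 48, R6/2 64 or R6/2 65 (0.0578, 0.0605 and 0.0560). Adjusted for the cortical score, Wee1 passed (0.0420), while Ccnb2 (0.0596) and Cdc25b (0.0576) did not.

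The list built around the ligase that works with Cks1, with related ubiquitin and Nedd8 genes, had the highest list median. It was 0.18 over 9 measured genes, with 3 higher and 1 lower. The ligase subunits Skp1, Cul1 and Rbx1 differed by 0.20, 0.10 and 0.021 and were not called. On Skp1 all R6/2 mice lay above all wild-type mice (adjusted p = 0.134). Skp2, the subunit that holds p27 together with Cks1, read 6.37, 6.18, 5.95 and 6.15 in wild-type and 6.58, 6.72, 6.39 and 6.49 in R6/2 mice. All R6/2 mice lay above all wild-type mice, with a difference of 0.39 ± 0.10 (adjusted p = 0.0425). Of its 5 other probe sets none passed, at 0.037 to 0.36. Nedd8, the protein tag that activates cullin ligases, was higher by 0.30 ± 0.083 (adjusted p = 0.0466), and Uba3, the enzyme that loads it, by 0.39 ± 0.093 (adjusted p = 0.0254), with its other probe sets at 0.70 (adjusted p = 0.00893) and 0.25 (adjusted p = 0.289). Fbxw7, which directs a related ligase to cyclin E, differed by -0.42 ± 0.11 (adjusted p = 0.0356). All 4 calls were close to the threshold: Skp2 passed only without wild-type 42 (0.0233), and Nedd8 only without wild-type 63 (0.0146), when single mice were left out. Uba3 lost its call without wild-type 48 or 54 or R6/2 64, 65 or 78, and Fbxw7 without any mouse but wild-type 54 and R6/2 64, with adjusted p up to 0.0748 and 0.0899. None of the 4 passed after adjusting for the cortical score, and the Fbxw7 difference shrank to -0.17 ± 0.10 (adjusted p = 0.444).

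Of 20 genes that mark dividing cells, 2 were higher. Both act at the replication fork, and Pcna is also known from DNA repair. Pcna, the sliding clamp, read 9.24 to 9.55 in wild-type and 9.73 or more in all R6/2 mice, with means of 9.38 ± 0.16 and 9.86 ± 0.11, a rise of 0.47 ± 0.095 (adjusted p = 0.0127). Mcm6, a subunit of the replicative helicase, rose by 0.49 ± 0.096 (adjusted p = 0.0117), with 5.92 to 6.29 in wild-type and 6.40 to 6.67 in R6/2 mice. Its other probe sets each had a group at the Y-linked level and gave no measurable difference. The remaining 18 marker genes were not called, and of these Birc5, Aurkb, Bub1 and Tyms had a group at the Y-linked level and gave no measurable difference. Without variance moderation neither Mcm6 (0.0540) nor Pcna (0.0546) passed, and after adjusting for the cortical score Mcm6 passed (0.0272) and Pcna did not (0.107).

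Of 26 genes of neuronal and transcriptional kinases of the same family, other cyclins and kinase activators, 3 were higher and 2 lower. The largest difference was in Cdk5r2, an activator of the neuronal kinase Cdk5, at 9.34, 9.41, 9.18 and 9.04 in wild-type and 8.67, 8.40, 8.46 and 8.43 in R6/2 mice. It fell by 0.75 on the log2 scale (adjusted p = 0.00216), although its dimmer probe set differed by -0.14 (adjusted p = 0.313). Mnat1, which assembles the kinase that activates other cyclin-dependent kinases, rose by 0.53 ± 0.077 (adjusted p = 0.00310). Cdk16 differed by -0.33 ± 0.072 (adjusted p = 0.0172, and 0.0502 without wild-type 48), with its 4 other probe sets at -0.21 to -0.040. Cdk13, a kinase of RNA polymerase II, differed by 0.38 ± 0.089 (adjusted p = 0.0263), while its 3 other probe sets lay between -0.069 and 0.016. When single mice were left out, Cdk13 passed only without wild-type 42 (0.00845) or R6/2 78 (0.0443), with adjusted p up to 0.0786. With the cortical score as a covariate Cdk5r2 (0.0425) and Mnat1 (0.0202) passed, while Cdk16 (0.200) and Cdk13 (0.0854) did not.

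Because Cdkn1a is a target of p53 and of the glucocorticoid receptor, targets of both were read beside it. Of 16 measured p53 targets 1 was lower and none higher: Btg2, an antiproliferative gene that is also an early response gene of neurons, read 6.20, 6.36, 5.98 and 6.51 against 5.67, 5.67, 5.68 and 5.81. The groups did not overlap, and it fell by 0.55 on the log2 scale (adjusted p = 0.0112), with its other probe set at -0.58 ± 0.14 (adjusted p = 0.0322). The glucocorticoid list held 15 genes, the receptor gene Nr3c1 itself (-0.017) among them. Of these, 2 were lower: the metallothionein Mt1 (-0.41 ± 0.081, adjusted p = 0.0118) and the clock gene Per1 (-0.46 ± 0.097, adjusted p = 0.0157, and 0.0516 without R6/2 70). The largest difference in the list was in the other direction and not called: Tsc22d3 (GILZ), named after its values were seen, at 0.63 ± 0.18 (adjusted p = 0.0518). A dimmer Mt1 probe set was at -0.065 (adjusted p = 0.735). The list medians were -0.032 and -0.0020, near the -0.0034 of all named genes. With the cortical score as a covariate, none of Btg2, Mt1 and Per1 passed, with adjusted p up to 0.200.

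**Figure D5:**
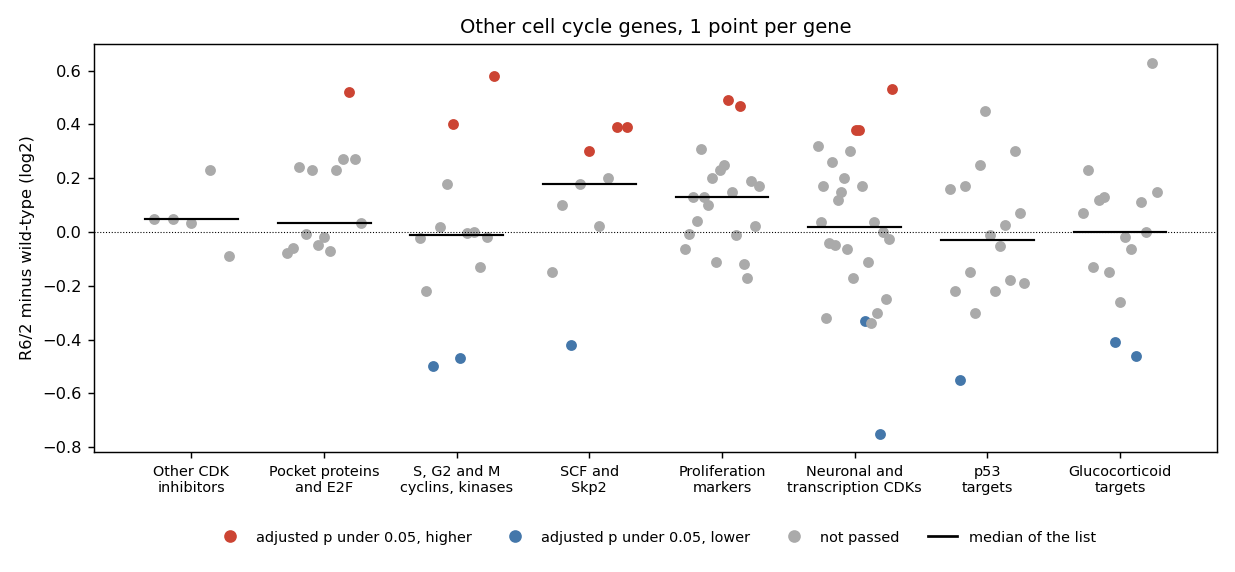
Difference between R6/2 and wild-type mice (log2) for each measured gene of the 8 lists of other cell cycle genes and regulators, 1 point per gene, with called genes marked and a line at each list's median. Most points lie near 0, and the called genes lie on both sides, from -0.75 (Cdk5r2) to 0.58 (Wee1).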

How the data were processed

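Biotin-labelled striatal total RNA of 8 mice was measured on Affymetrix arrays, per the labels. The table deposited by the authors holds a log2 value for each probe set and array. RMA and affy are named in the submitters' processing notes, with no version. Which arrays RMA took together was not given in the sources used here. RMA shrinks differences of dim probe sets.

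Of 45101 probe sets, 64 controls were left out. The platform annotation named 1 gene for 34945 probe sets, several for 932 and none for 9160; 34741 symbols matched RefSeq genes by Entrez ID. R6/2 and wild-type arrays were compared with limma 3.58.1 (lmFit, eBayes) under R 4.3.3, in 1 model over 45037 probe sets, with Benjamini-Hochberg adjustment over all of them and a call at an adjusted p under 0.05. The model was tested on simulated data. Standard errors are moderated, and a fold is 2 raised to the size of the difference. Nothing in the labels says that the RNA was extracted in separate batches. Figures were drawn with matplotlib 3.10.9.

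The members and lists were chosen with earlier results of these data known. Named in the text are all member probe sets, up to 4 called genes of each list with the smallest adjusted p (or the 2 brightest where none was called), 3 genes on either side of Cks1b, and the 5 genes most correlated with it. Outside this rule, Skp1, Cul1, Rbx1, Nr3c1, Tsc22d3, genes at the Y-linked level, some marker genes and the genes of the mouse 70 search were also named. Alternatives were quantile normalization, median centring, no dim probe sets, 1 probe set per gene, other variance moderation, cortical or choroid scores as covariates, and leaving out each array.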

Additional observations from a re-analysis of the deposited data

Results flagged for a closer look

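In 118 groups of 4 mice read for the named probe sets, 15 held a mouse far from the other 3, and in the members 7 of 56 did; chance gives about 1 in 20 such groups. In Cdkn1a (1424638_at) wild-type 54 lay at 7.76 above 7.45 to 7.48, and in Ccnd1 (1417419_at) wild-type 63 at 7.40 above 6.56 to 6.71. In Ccnd2, wild-type 42 lay at 9.83 above 9.28 to 9.32 (1455956_x_at), and R6/2 70 at 5.11 above 3.70 to 3.89 (1416123_at). In Ccnd3 (1438805_at) R6/2 64 lay at 3.67 beside 3 mice at 3.70, a gap of no size at that level. In Cdk4 (1422439_a_at) R6/2 65 lay at 6.86 below 7.23 to 7.24, and in Cdk6 (1455287_at) wild-type 48 at 5.13 above 5.00.

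Among the other genes, R6/2 70 lay at 5.59 in Cdkn2c above 5.47 to 5.48, wild-type 48 at 4.67 in Ccnb2 above 4.37 to 4.42, and R6/2 65 at 6.40 in Mcm6 below 6.62 to 6.67. R6/2 64 lay at 7.24 in Mnat1 above 6.98 to 7.01, wild-type 42 at 7.86 in Cdk13 above 7.55 to 7.58, and R6/2 78 at 5.81 in Btg2 above 5.67 to 5.68. Wild-type 42 lay at 7.17 in Flad1 below 7.35 to 7.37, and R6/2 65 at 7.43 in Klc4 below 7.67 to 7.69.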

How the results depend on the processing

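The number of probe sets called over the whole array, 4566, was 2781 with 1 probe set per gene, 1861 without variance moderation and 1298 after adjusting for the cortical score, and ranged from 2650 to 4262 when single mice were left out (2656 without wild-type 48, 2780 without R6/2 64, 2650 without R6/2 70). The 7 member calls became 4 of 10 with 1 probe set per gene and ranged from 6 to 8 without single mice. The 19 calls in the pathway lists became 8 without moderation and 5 with the cortical score, and ranged from 11 to 18 without single mice. Of the 7 member calls, 5 held under each of the alternatives that contained them, and the exceptions were Cks2 (1417457_at) and Ccnd2 (1430127_a_at). No paired analysis was possible because the groups share no mouse numbers. Only uncalled differences near 0 changed sign, and the cause was not tested. With the cortical score these were Cdkn1b (1419497_at) -0.053, Ccnd1 0.35 (1448698_at) and 0.16 (1417419_at), Ccnd2 0.12 (1416122_at) and 0.039 (1434745_at), Ccnd3 (1444323_at) 0.0061, and Cdk4 0.13 (1422441_x_at) and 0.077 (1422440_at). With the choroid score they were Cdk4 0.029 and 0.045, Cdkn2c -0.0046 and Pbxip1 -0.066, after median centring Ccnd3 0.0018, Cdk4 0.0066 and Gm15417 0.0083, and after quantile normalization Ccnd3 0.0048 and Gm15417 0.012. Leaving out single mice turned the sign of the same kind of values, which then ranged from -0.0061 to 0.15 in Cdkn1b (1419497_at), -0.19 to 0.030 (1417420_at), -0.13 to 0.12 (1448698_at) and -0.18 to 0.097 (1417419_at) in Ccnd1, -0.022 to 0.049 in Ccnd2 (1416124_at), -0.042 to 0.017 in Ccnd3 (1444323_at), -0.061 to 0.075 (1422441_x_at) and -0.081 to 0.098 (1422440_at) in Cdk4, -0.014 to 0.092 in Cdkn2c, -0.045 to 0.053 in Gm15417 and -0.077 to 0.15 in Pbxip1. With 4 mice per group, the median standard error over all probe sets was 0.096, and probe sets at the Y-linked level give no measurable difference.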

Other observations

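The pattern of Ccnd2, with R6/2 mouse 70 apart from the other 3 R6/2 mice, was looked for over the whole array after its values were seen, so it is a description with no test. A gap of more than 0.5 (log2) between the other 3 R6/2 mice and the remaining 5 mice was found in 13 probe sets, 10 of them with a gene name. These 10 include the Ccnd2 pair that prompted the search. On the same chromosome as Ccnd2, chromosome 6, lie Grin2b (an NMDA receptor subunit) and Spx (a neuropeptide gene). Grin2b (1457003_at) read 9.36 to 9.52 in wild-type mice, 8.95 in mouse 70 and 8.29, 8.10 and 8.30 in R6/2 mice 64, 65 and 78. Spx read 4.77 to 5.29 in wild-type, 4.65 in mouse 70 and 6.80, 5.82 and 6.39 in the others. Another 3 were probe sets of the class I antigen gene H2-D1, which on 1425545_x_at read 6.25 in mouse 70 and 6.46 in wild-type 42, and 7.89 or more in the other 6 mice. The rest were Bpnt1, Ifit3 and Malat1. On these and on Grin2b, mouse 70 lay outside the wild-type range, on the side of the other R6/2 mice. The same search with each other mouse in the place of mouse 70 found 2 to 30 probe sets. The chromosome with the most named probe sets held 4 of 10 for mouse 70 (chromosome 6, which holds 5.53% of all named probe sets). It held 4 of 17 for wild-type 63 (chromosome 7), 3 of 12 for wild-type 42, 3 of 15 for wild-type 54, and 1 or 2 for the remaining mice. The 4 for mouse 70 include the Ccnd2 pair that prompted the search, and the share on chromosome 6 was not tested.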
